A study of Sus scrofa with 11 samples.

Results

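The Schwann cell and nerve genes are 7 named genes, S100B, SOX10, MBP, NGFR, PMP22, CDH19 and PRX, picked by symbol out of the 30376 genes in the deposited expression values. All 7 were present, each under a single identifier. They were measured by bulk RNA sequencing of full-thickness dorsal skin wounds of female Yucatan minipigs, made with a biopsy punch and collected on day 10. A minipig made diabetic with intravenous streptozotocin (STZ), which destroys the insulin-producing cells of the pancreas, gave 7 wounds, and a minipig without diabetes that underwent the same surgery gave 4. The diabetic animal received insulin while the diabetes was established and none from the week before wounding onward. The labels give no ages, and all wounds were collected on the same day after wounding. Each group is a single animal, so diabetes and the individual animal cannot be told apart, and every p-value below measures the spread between wounds of an animal.

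Schwann cells ensheathe the axons of peripheral nerves, including the fine nerve bundles of the dermis, and a subset of them wraps larger axons in myelin. When a nerve is cut, as happens when skin is excised, they leave the myelinating state, lower their myelin genes, raise genes such as NGFR and guide regrowing axons. Of the genes described here, SOX10 is the transcription factor that keeps a cell in the Schwann lineage, S100B is a calcium-binding protein and CDH19 a cadherin of the lineage, NGFR is the low-affinity neurotrophin receptor p75, and MBP, PMP22 and PRX encode the myelin proteins myelin basic protein, peripheral myelin protein 22 and periaxin. None of them is exclusive to Schwann cells in skin: melanocytes carry SOX10 and S100B, adipocytes and dendritic cells S100B, basal keratinocytes NGFR, and fibroblasts PMP22.

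On the pig genome Sscrofa11.1, NGFR lies at chr12:25699410-25720355 on the plus strand and PMP22 at chr12:58679773-58734195 on the minus strand. SOX10 lies at chr5:9890439-9901746, MBP at chr1:147649516-147685289 and CDH19 at chr1:155669361-155758550, all on the plus strand. PRX lies at chr6:48675230-48691760 on the minus strand, and S100B lies on an unplaced scaffold. No annotated gene overlapped any of the 7, so their reads were not shared with a neighbour.

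The 250 bases before the annotated start are shown for 3 of them, read from the RefSeq assembly: NGFR, which had the largest log2 difference between the groups, SOX10, the transcription factor, and CDH19, whose values lay furthest apart as a ratio. The windows are chr12:25699160-25699409, chr5:9890189-9890438 and chr1:155669111-155669360, all on the plus strand, and capitals mark the SOX-type letters ACAAAG or ACAATG or their reverse complements CTTTGT and CATTGT. SOX proteins are known to bind such letters.
NGFR: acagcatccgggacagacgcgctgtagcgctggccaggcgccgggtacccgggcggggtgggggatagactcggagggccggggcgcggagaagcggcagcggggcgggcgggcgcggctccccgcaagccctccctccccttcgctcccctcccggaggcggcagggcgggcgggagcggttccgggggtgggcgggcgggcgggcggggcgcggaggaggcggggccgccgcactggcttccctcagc
SOX10: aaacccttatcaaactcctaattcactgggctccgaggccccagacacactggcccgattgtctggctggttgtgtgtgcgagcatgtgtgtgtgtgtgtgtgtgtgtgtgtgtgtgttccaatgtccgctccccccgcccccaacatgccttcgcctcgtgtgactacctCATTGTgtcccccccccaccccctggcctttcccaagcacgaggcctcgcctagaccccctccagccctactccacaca
CDH19: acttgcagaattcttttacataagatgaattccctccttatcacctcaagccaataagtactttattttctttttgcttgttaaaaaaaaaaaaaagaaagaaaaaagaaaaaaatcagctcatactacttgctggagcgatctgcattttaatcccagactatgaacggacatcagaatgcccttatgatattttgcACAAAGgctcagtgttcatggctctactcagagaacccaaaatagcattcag
These letters occurred on either strand in 6 of the 7 windows, with NGFR as the exception, against 19.1% of the 20667 protein-coding genes with a complete window. The matched run began at position -79 from the start of SOX10 and at position -52 from that of CDH19. The NGFR window was 80.8% G and C and the CDH19 window 34.8%. The letters were looked for after the expression values had been seen. A match is a description of the sequence and not a shown binding site, and its absence from the NGFR window concerns these letters in this window alone.

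The values are FPKM, fragments per length of gene and size of library, which may be compared between genes because they are set per length. The library size they imply was 0.854 (non-diabetic wound 1) to 1.18 (diabetic wound 2) times the reads assigned to genes. It was thus not the plain count of those reads. Between 28314785 and 40168372 reads per wound were assigned to genes, and for a gene 2 kb long 1 read was worth 0.0112 to 0.0194 FPKM. Differences are given as log2 fold changes, diabetic minus non-diabetic, of log2(FPKM + 0.5), a scale that understates the change of low genes. They were tested with limma across the 13956 genes with at least 0.5 FPKM in at least 4 wounds, and a gene counted as called when its Benjamini-Hochberg adjusted p was below 0.05 and its log2 fold change beyond 0.5 in either direction. By this rule 188 genes were called higher and 231 lower, 3.00% of those tested, and 152 higher and 293 lower when every library was scaled to the same total FPKM. Single genes also got an exact permutation test (two-sided), which set the observed difference against all 330 ways to divide the 11 wounds into 7 and 4. In bulk tissue, fewer Schwann cells and less of a transcript per Schwann cell cannot be told apart.

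Libraries that stood apart bear on several values below. Diabetic wound 4 and non-diabetic wound 1 held little epidermis: the 10 measured of 12 keratinocyte genes, none of them at 0 in any wound, summed to 45.2 and 265 FPKM there and to 1414 to 6409 FPKM in the other wounds. Over whole groups that sum ran from 45.2 to 6409 FPKM in diabetic and from 265 to 2553 FPKM in non-diabetic wounds. KRT5, the keratin of basal keratinocytes and the most abundant gene of the list, was at 29.2 FPKM in diabetic wound 4 and 211 FPKM in non-diabetic wound 1. Diabetic wound 3 held skeletal muscle: the 13 muscle genes summed to 2391 FPKM there and to at most 14.5 FPKM elsewhere. For the most abundant gene of each of the 10 marker lists, log2 fold changes were 0.25 for KRT5, -2.11 for PMEL (melanocytes), -0.07 for MSX2 (hair follicle), -0.26 for COL3A1 (fibroblasts), 0.92 for FABP4 (adipocytes), 0.20 for TAGLN (smooth muscle), 0.02 for PECAM1 (endothelium), 0.42 for CD68 (macrophages) and 0.25 for CD3E (T cells). None of these most abundant genes was called, the lowest limma adjusted p being 0.0607 for FABP4, and ACTA1 (skeletal muscle) was under the filter on low values. Over the whole marker lists 4 genes were called. Of 10 keratinocyte genes tested 9 were above 0 and KRT15, a keratin of basal keratinocytes, was called higher in diabetic wounds (log2 fold change 2.50, limma adjusted p = 0.0388), with overlapping groups. Of 8 dendritic cell and macrophage genes tested 7 were above 0 and both ITGAM, an integrin of myeloid cells, and CD14, a receptor of monocytes and macrophages, were called higher (1.22 and 0.76, limma adjusted p of 0.00585 and 0.039). Of the 9 adipocyte genes 8 were below 0, with a median of -0.54, opposite to FABP4, and LEP, the hormone leptin, was called lower (-1.41, limma adjusted p = 0.0126).

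The 7 genes differed widely in level. PMP22 was the highest, averaging 13.5 ± 2.83 FPKM (SD, n = 7) in the diabetic group beside 13.1 ± 1.43 FPKM (SD, n = 4) in the non-diabetic group. S100B and NGFR came next and CDH19 last, at 0.0809 ± 0.0869 FPKM (SD, n = 7) and 0.0290 ± 0.0182 FPKM (SD, n = 4). The ranges of neighbours in this order often overlapped. The ranges of S100B and NGFR overlapped in both groups, as did those of PRX and MBP and those of MBP and SOX10. Those of NGFR and PRX overlapped in the non-diabetic group and those of SOX10 and CDH19 in the diabetic group. Compared within each wound, SOX10 lay above CDH19 throughout. PRX lay above MBP except in diabetic wound 2, and NGFR above PRX except in non-diabetic wound 1. S100B lay below NGFR in diabetic wounds 2, 5 and 7, and MBP below SOX10 in diabetic wounds 5 and 6. The lineage genes SOX10 and CDH19 and the myelin gene MBP rested on few reads, with 13 to 73 per wound for SOX10, 11 to 138 for MBP and 1 to 64 for CDH19.

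**Figure D1:**
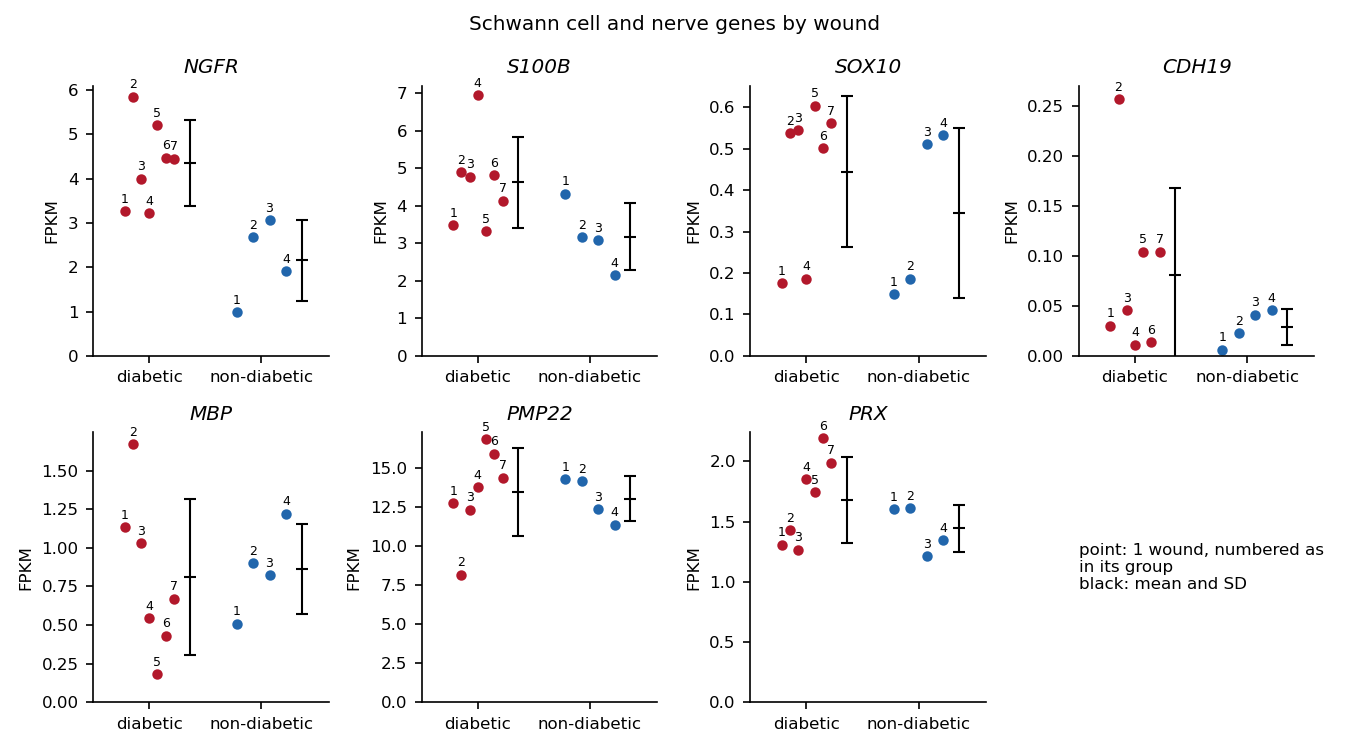
FPKM of the 7 genes in each wound, with diabetic wounds in red, non-diabetic wounds in blue, the wound's number beside its point, and the mean and SD in black (n = 7 and n = 4; the lower end of the diabetic CDH19 bar is under 0 and not drawn). NGFR is the gene whose groups do not overlap, diabetic wound 2 has the highest NGFR, CDH19 and MBP and the lowest PMP22, and SOX10 falls into high and low wounds in both groups.

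None of the 6 genes that passed the filter on low values was called by limma, against 3.00% of all genes tested. At an unadjusted limma p under 0.05 there were 2, NGFR and S100B, against 18.4% of all genes tested, and none was called by limma's voom on the recovered reads. The log2 fold change was positive for 5 of the 6, with a median of 0.16, beside 0.014 over all genes tested. CDH19 did not pass the filter and was compared by the exact permutation test alone. Of the 7 genes, NGFR alone had groups that did not overlap, which was also true of 5.65% of the genes tested and of 4.20% of the 23541 genes with a read in any wound.

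NGFR, the neurotrophin receptor that Schwann cells raise after nerve injury, showed the largest difference. In the 7 diabetic wounds its lowest value was 3.23 FPKM, its median 4.45 FPKM and its highest 5.85 FPKM. The 4 non-diabetic wounds held 0.983, 2.68, 3.06 and 1.91 FPKM, in the order of their numbers. Every diabetic wound lay above every non-diabetic wound, although diabetic wound 4, at 3.23 FPKM, and non-diabetic wound 3, at 3.06 FPKM, were close. The mean was 4.35 ± 0.960 FPKM (SD, n = 7) against 2.16 ± 0.918 FPKM (SD, n = 4), 2.02-fold. The log2 fold change was 0.92 (SE 0.23, 95% interval 0.41 to 1.43), and its limma adjusted p of 0.054 missed the threshold. The exact permutation test gave p = 0.00303, unadjusted, the smallest that 330 divisions allow.

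The NGFR difference kept its sign in all 25 alternatives to the limma fit, with log2 fold changes of 0.67 to 1.11 and adjusted p of 0.0194 to 0.359. It passed the threshold in 5 of them, among these the fits without diabetic wound 1 (adjusted p = 0.0469) and without diabetic wound 4 (adjusted p = 0.0495). The exact permutation test gave p of 0.00303 to 0.0119 in 15 alternatives. With wounds left out, each p was the smallest that the remaining 84 to 210 divisions allow. Those values thus follow the number of divisions and do not show how stable the difference is. NGFR was lowest within each group in the wounds that held little epidermis, diabetic wound 4 and non-diabetic wound 1. Without both, the diabetic wounds held 3.27 to 5.85 FPKM and the non-diabetic wounds 1.91 to 3.06 FPKM. Leaving out wounds cannot make separate groups overlap, so the lack of overlap here adds nothing. The log2 fold change was 0.72 in place of 0.92, with a limma adjusted p of 0.0891. Of the basal keratinocyte markers, KRT15 was called higher in diabetic wounds, while KRT5 was not called (log2 fold change 0.25, limma adjusted p = 0.936). The part of basal keratinocytes in the NGFR difference was not tested.

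S100B, the calcium-binding protein of the lineage, had the next largest difference on the log2(FPKM + 0.5) scale, and its groups overlapped. In the diabetic wounds the lowest value was 3.32 FPKM, the median 4.78 FPKM and the highest 6.96 FPKM. The non-diabetic wounds held 4.33, 3.17, 3.09 and 2.15 FPKM. Non-diabetic wound 1 thus lay above 3 of the 7 diabetic wounds, and the remaining non-diabetic wounds lay below all of them. The log2 fold change was 0.48 (SE 0.20, 95% interval 0.05 to 0.91), with a limma adjusted p of 0.22 and an exact permutation p of 0.0394, unadjusted.

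The exact permutation p of S100B changed with the wounds included. It was 0.0571 without diabetic wound 2, 3, 4 or 6, 0.0917 without non-diabetic wound 2 or 3, and 0.133 without non-diabetic wound 4. Only 210 or 120 divisions remain then in place of 330, so p can rise while the difference hardly moves. The log2 difference was 0.46 to 0.49 without diabetic wound 2, 3 or 6 or non-diabetic wound 2 or 3, beside 0.48 with all wounds. It was lower without diabetic wound 4 (0.38) and without non-diabetic wound 4 (0.33). With every library scaled to the same total FPKM the exact permutation p was 0.0818. The highest S100B value was that of diabetic wound 4. The same wound had the highest sum over the 9 measured of 10 dendritic cell and macrophage genes, none of them at 0, at 284 FPKM. That sum was 155 to 284 FPKM in diabetic and 109 to 190 FPKM in non-diabetic wounds, and the sum over 9 adipocyte genes was 284 to 901 FPKM and 305 to 517 FPKM, although 8 of those 9 genes had log2 fold changes below 0. ITGAM and CD14 of the dendritic cell and macrophage list were called higher in diabetic wounds. The part of these cells in the S100B difference was not tested.

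SOX10, the lineage transcription factor, was low and fell into high and low wounds within each group. In the diabetic wounds the lowest value was 0.175 FPKM, the median 0.538 FPKM and the highest 0.604 FPKM. The non-diabetic wounds held 0.149, 0.186, 0.511 and 0.532 FPKM. Diabetic wounds 1 and 4 and non-diabetic wounds 1 and 2 lay between 0.149 and 0.187 FPKM, and the other 7 wounds between 0.501 and 0.604 FPKM. Its log2 fold change was 0.17 (SE 0.20, 95% interval -0.27 to 0.60), with a limma adjusted p of 0.711 and an exact permutation p of 0.242. The interval does not exclude a difference of the size that is called.

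Melanocytes also use SOX10, and their genes differed between wounds. The 8 measured of 9 melanocyte genes summed to 1.37 to 8.53 FPKM in diabetic and 3.20 to 18.6 FPKM in non-diabetic wounds. PMEL, the matrix protein of pigment granules and the most abundant of them, stood at 3.85 FPKM in diabetic wound 6, at 7.65 FPKM in non-diabetic wound 3 and at 5.68 FPKM in non-diabetic wound 4, and at 1.29 FPKM or less in the other 8 wounds. TYR, TYRP1 and OCA2 were at 0 in at least 1 wound. All 3 wounds with high PMEL were among those with high SOX10. The other wounds with high SOX10 were diabetic wounds 2, 3, 5 and 7, where the melanocyte sum was 1.37 to 2.10 FPKM. The part of melanocytes in the SOX10 values was not tested.

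CDH19, the cadherin of the lineage, was the scarcest of the 7 genes. In the diabetic wounds the lowest value was 0.0113 FPKM, the median 0.0456 FPKM and the highest 0.257 FPKM. The non-diabetic wounds held 0.00627, 0.0226, 0.0412 and 0.0460 FPKM, which is 1 to 10 reads. Diabetic wound 2 stood far above the rest with 64 reads, followed by diabetic wounds 5 and 7 at 0.104 FPKM each, and the 4 remaining diabetic wounds lay within the non-diabetic range. The diabetic mean was 2.79-fold the non-diabetic mean, the largest such ratio of the 7 genes. The difference in mean log2 value was 0.12 and the exact permutation p 0.315. Without diabetic wound 2 the difference was 0.06, and the diabetic mean was 0.0516 FPKM (n = 6) in place of 0.0809 FPKM.

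Of the myelin genes MBP, PMP22 and PRX, MBP had the largest SD of log2 values within the groups. In the diabetic wounds its lowest value was 0.182 FPKM, its median 0.672 FPKM and its highest 1.67 FPKM. The non-diabetic wounds held 0.510, 0.901, 0.824 and 1.22 FPKM. The diabetic wounds reached both further down and further up than the non-diabetic ones, with diabetic wound 5 the lowest of all and diabetic wound 2 the highest, 9.18-fold apart. For MBP the log2 fold change was -0.12 (SE 0.28, 95% interval -0.75 to 0.50), with a limma adjusted p of 0.863 and an exact permutation p of 0.697. Its sign turned when diabetic wound 5 was left out (0.017).

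PMP22, a tetraspan membrane protein of compact myelin that other dermal cells also make, had near-equal means in the groups. In the diabetic wounds the lowest value was 8.18 FPKM, the median 13.8 FPKM and the highest 16.8 FPKM. The non-diabetic wounds held 14.3, 14.2, 12.4 and 11.4 FPKM. All non-diabetic wounds lay within the diabetic range, and diabetic wound 2 lay below every other wound. The log2 fold change was 0.02 (SE 0.17, 95% interval -0.35 to 0.39), with a limma adjusted p of 0.968, and its sign turned under other scalings (-0.052 with the same total FPKM, -0.043 with quantile normalization). The interval leaves out the size of difference at which a gene was called.

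PRX, the scaffold protein of mature myelinating Schwann cells, had the smallest SD of log2 values within the groups among the 6 genes tested. In the diabetic wounds the lowest value was 1.27 FPKM, the median 1.74 FPKM and the highest 2.19 FPKM. The non-diabetic wounds held 1.602, 1.61, 1.21 and 1.34 FPKM. Diabetic wounds 4, 5, 6 and 7 lay above every non-diabetic wound and diabetic wounds 1, 2 and 3 within their range. For PRX the log2 fold change was 0.16 (SE 0.14, 95% interval -0.15 to 0.46), with a limma adjusted p of 0.603 and an exact permutation p of 0.261.

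**Figure D2:**
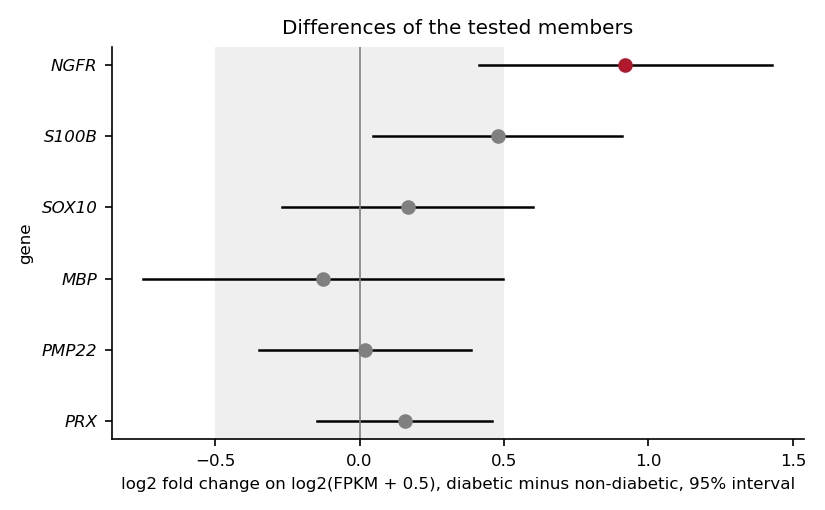
Log2 fold change of log2(FPKM + 0.5), diabetic minus non-diabetic, for the 6 genes that passed the filter, with the 95% interval from limma (n = 7 and n = 4). The grey band spans the fold changes too small to be called, and red marks NGFR, the gene whose groups do not overlap; its interval runs from 0.41 to 1.43, while those of SOX10, MBP, PMP22 and PRX include 0.

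The spread between wounds of a group was, for most of these genes, above that of a typical gene. The within-group SD of the log2 value had a median of 0.25 over all genes tested. It was 0.49 for MBP, 0.40 for NGFR, 0.33 for S100B, 0.32 for SOX10, 0.28 for PMP22 and 0.21 for PRX. Of all genes tested, 86.5% had a smaller SD than MBP and 38.3% a smaller one than PRX.

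The genes did not share a single order of wounds. Diabetic wound 2 had the highest NGFR, MBP and CDH19 of all 11 wounds and the lowest PMP22. It also held the most SCN7A, a sodium channel gene of non-myelinating Schwann cells, at 0.335 FPKM against at most 0.118 FPKM elsewhere. S100B was highest in diabetic wound 4, SOX10 and PMP22 in diabetic wound 5 and PRX in diabetic wound 6.

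SCN7A and ERBB3, the neuregulin receptor of the lineage, served as a check of the Schwann cell label beside the genes of the set. SCN7A was above 0 in all 11 wounds and low, from 0.0195 FPKM in diabetic wound 4 to 0.335 FPKM in diabetic wound 2. ERBB3 was far higher, at 6.07 to 16.1 FPKM in 9 wounds, but stood at 0.545 and 0.541 FPKM in diabetic wound 4 and non-diabetic wound 1, the wounds with little epidermis. SOX10 was at 0.187 and 0.149 FPKM, CDH19 at 0.0113 and 0.00627 FPKM, NGFR at 3.23 and 0.983 FPKM and S100B at 6.96 and 4.33 FPKM in the same wounds, so that CDH19 and NGFR were also lowest there within each group and S100B highest. Keratinocytes express ERBB3 as well, and which cells gave these reads was not tested.

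**Figure D3:**
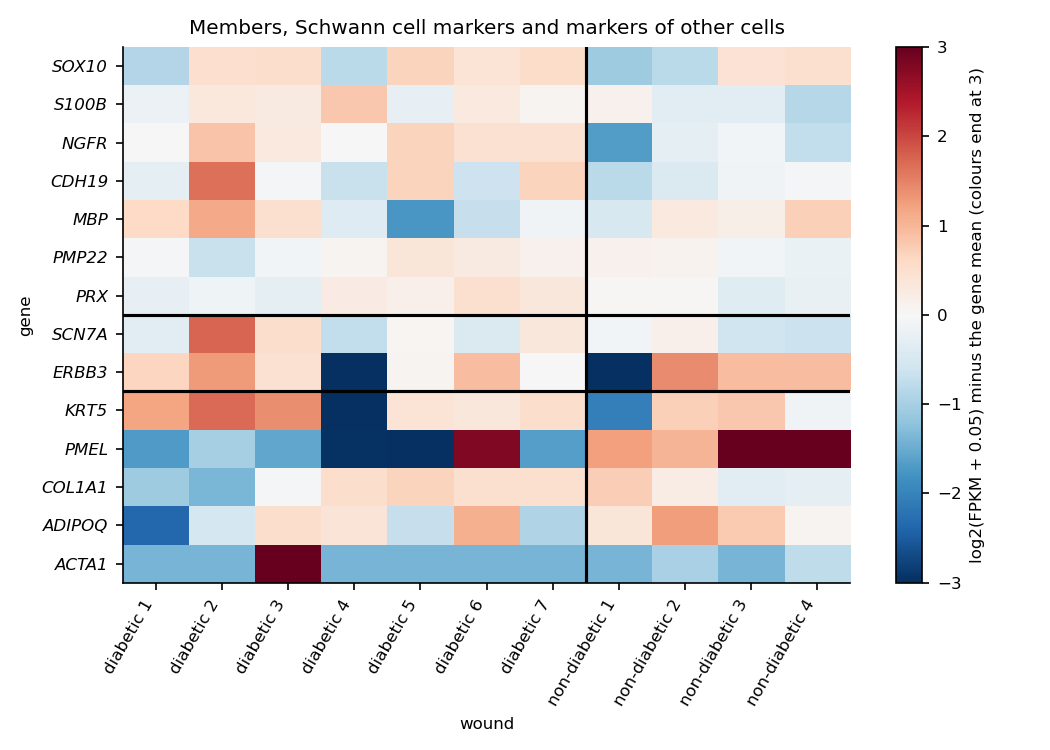
Colour map of log2(FPKM + 0.05) minus the gene's mean over the 11 wounds, for the 7 genes (top block), SCN7A and ERBB3 (middle block) and abundant marker genes of keratinocytes, melanocytes, fibroblasts, adipocytes and skeletal muscle (bottom block), with the diabetic wounds left of the vertical line. Red is above and blue below the gene's mean: diabetic wound 2 is red for NGFR, CDH19, MBP and SCN7A, ERBB3 and KRT5 are both blue in diabetic wound 4 and non-diabetic wound 1, and ACTA1, the actin of skeletal muscle, is red in diabetic wound 3.

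Whether the other 6 genes followed SOX10 from wound to wound was examined over the 7 diabetic wounds, with exact permutation tests over every order of the wounds and Benjamini-Hochberg adjustment over the 6 relations. The wounds are of 1 animal and share their libraries' composition. NGFR came closest to SOX10, with Pearson r = 0.841 (exact permutation p = 0.0248, adjusted p = 0.149) and Spearman rho = 0.571 (exact permutation p = 0.2, adjusted p = 0.533). This relation rested on the 2 wounds farthest from the median SOX10 value, diabetic wounds 1 and 4, without which r was 0.247. Since SOX10 fell into separate high and low wounds, r mostly compares those 2 wounds with the other 5. CDH19 had r = 0.520 (exact permutation p = 0.196, adjusted p = 0.587) and rho = 0.643, and r = 0.270 without those wounds. For S100B, MBP, PMP22 and PRX, r was -0.299, -0.165, 0.0160 and 0.174, with adjusted exact permutation p of 0.852 or more and rho of -0.429, -0.357, 0.357 and 0.0714. None of the 6 relations passed the adjustment over the 7 wounds. That of S100B turned on single wounds: r was -0.884 without diabetic wound 1 (adjusted exact permutation p = 0.025) and 0.378 without diabetic wound 4.

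The genes most like SOX10, NGFR and S100B were sought among all genes tested, by the Pearson correlation of each wound's deviation from its own group's mean log2 value over the 11 wounds. Closest to SOX10 were RASGEF1B (r = 0.871), C9H11orf52 (r = 0.853) and MIR429 (r = 0.846). Closest to NGFR were BTG1 (r = 0.924), H3F3A (r = 0.897) and FZD10 (r = 0.890), and closest to S100B were ALKBH2 (r = 0.947), LYL1 (r = 0.922) and LZTS1 (r = 0.908). No gene of the set was among these. Between SOX10 and NGFR the value was 0.636, between SOX10 and S100B -0.488 and between NGFR and S100B -0.368. With so many genes compared over 11 wounds, such values are a description of these wounds. LZTS1 was called lower in diabetic wounds, with a log2 fold change of -0.61 and a limma adjusted p of 0.0072.

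A wider set of 7 lists gave the rest of the pathway: Schwann cell transcription factors, myelin proteins and lipid synthesis, non-myelinating and immature Schwann cell genes, neuregulin and other Schwann cell receptors, neurotrophic ligands, neurotrophic and guidance receptors, and axon and neuron genes. Of their 102 genes 97 were measured under a single symbol, 56 passed the filter and 41 did not. A single gene was called, L1CAM, which is 1.79% of those tested beside 3.00% of all genes. An unadjusted limma p under 0.05 was reached by 8 genes (14.3%), beside 18.4% of all genes. The median log2 fold change of the 56 was 0.026, beside 0.014 over all genes.

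L1CAM, an adhesion molecule of axons and non-myelinating Schwann cells that other cells also carry, was higher in diabetic wounds. Its values were 2.94 FPKM at the lowest, 3.54 FPKM at the median and 5.42 FPKM at the highest in diabetic wounds, against 2.21, 2.28, 2.28 and 2.55 FPKM in non-diabetic wounds. The groups did not overlap. The log2 fold change was 0.61 (SE 0.13) with a limma adjusted p of 0.0309, and the gene stayed called in 15 of 25 alternatives. It was not called without diabetic wound 3 (adjusted p = 0.0631), 5 (0.0655) or 7 (0.0505), or without non-diabetic wound 1 (0.0939), 2 (0.0836), 3 (0.0965) or 4 (0.0659), and its log2 fold change was 0.54 to 0.67 with any single wound left out.

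Among the Schwann cell transcription factors, 10 of 12 were tested and none was called, with a median log2 fold change of -0.23 and 2 of the 10 positive. JUN, the factor that drives the injury response of Schwann cells and is present in nearly every dermal cell, was at 52.0 ± 13.7 FPKM (SD, n = 7) against 84.1 ± 20.4 FPKM (SD, n = 4), a log2 fold change of -0.70 (SE 0.23) with a limma adjusted p of 0.129. YAP1 and HDAC2, the other abundant members, had log2 fold changes of -0.17 and -0.12 with limma adjusted p of 0.409 and 0.519.

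Of the 16 myelin protein and lipid synthesis genes 6 were tested and none was called, with a median log2 fold change of 0.30. The abundant ones were MPZL2, an adhesion molecule of epithelia, CNP, an enzyme of myelin-forming cells that other cells express too, and CLDN19, a claudin. MPZL2 and CNP had log2 fold changes of -0.22 and -0.05 and CLDN19 had 0.53, with limma adjusted p of 0.912, 0.872 and 0.497. The summed level of the list was 19.8 FPKM in diabetic wound 4 and 21.6 FPKM in non-diabetic wound 1, and 34.1 to 73.3 FPKM in the other wounds. MPZL2 was itself lowest in those wounds, at 1.89 FPKM in diabetic wound 4 and 5.58 FPKM in non-diabetic wound 1. CNP was not low there, at 11.75 and 12.98 FPKM, beside a range of 8.76 to 13.57 FPKM over the diabetic wounds. The low sums thus went with MPZL2 and do not show that the list as a whole was low.

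The 14 non-myelinating and immature Schwann cell genes included, beside L1CAM, ERBB3 and CADM4, with log2 fold changes of -0.03 and 0.39 and limma adjusted p of 0.989 and 0.724. Of the 13 neuregulin and Schwann cell receptor genes 10 were tested and none was called. The integrin genes ITGB4 and ITGA6, whose proteins join basal cells to laminin, and DAG1, dystroglycan, were the most abundant, with log2 fold changes of 0.56, -0.0013 and -0.03 and limma adjusted p of 0.503, 0.999 and 0.909.

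The neurotrophic ligands had the most positive values, with 10 of 12 tested genes above 0 and a median log2 fold change of 0.23, and none was called. PTN (pleiotrophin), MDK (midkine) and NTN1 (netrin 1) were the most abundant, with log2 fold changes of -0.00047, 0.11 and 0.22 and limma adjusted p of 1, 0.806 and 0.63.

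Of the 15 neurotrophic and guidance receptors 13 were measured, 8 tested and none called. SORT1 (sortilin), which pairs with NGFR at the cell surface, NRP1 (neuropilin 1) and SORCS2 were the most abundant, with log2 fold changes of -0.26, -0.35 and -0.12 and limma adjusted p of 0.306, 0.401 and 0.861.

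Axon and neuron genes, which sensory neurons transcribe in cell bodies outside the skin, were mostly near the detection limit. Of 18 genes 15 were measured and 4 tested, 10 had no read in at least 1 wound, and none was called. UCHL1, a neuronal ubiquitin hydrolase, STMN2, a stathmin of growing axons, and SNAP25, a protein of synaptic vesicle release, had log2 fold changes of -0.70, -0.48 and -0.06 with limma adjusted p of 0.321, 0.483 and 0.968. UCHL1 was at 1.09 to 5.55 FPKM and SNAP25 at 1.92 to 12.7 FPKM, well above that limit. Which cells in the wounds gave these reads was not tested. The sign of SNAP25 turned without non-diabetic wound 4, which held 12.7 FPKM of it: the log2 fold change was then 0.46 (limma adjusted p = 0.66). NEFL, a neurofilament gene, was at no more than 0.00855 FPKM in the mean of either group.

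**Figure D4:**
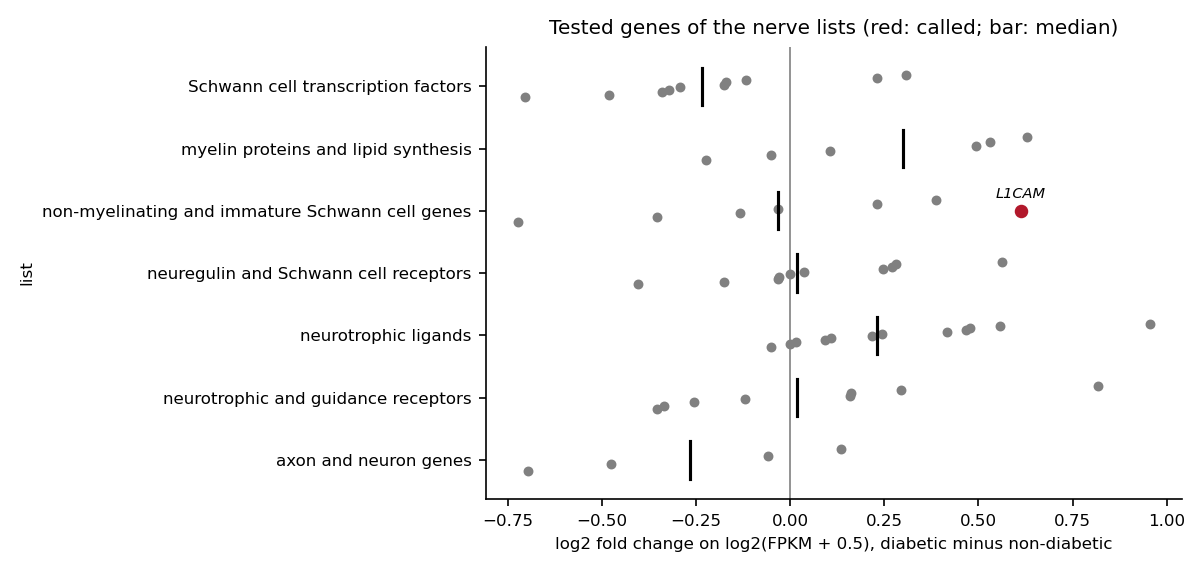
Log2 fold changes of log2(FPKM + 0.5), diabetic minus non-diabetic, of the tested genes of the 7 nerve lists, 1 point per gene, with the list's median as a black bar. L1CAM, in red, is the called gene, at 0.61; the medians run from -0.27 for axon and neuron genes to 0.30 for myelin genes.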

How the data were processed

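Messenger RNA of 11 wounds was sequenced from strand-marked libraries. According to the submitters' processing notes, fastp, HISAT2 2.2.1, StringTie 2.2.3 and featureCounts 2.0.6 were used with the Sscrofa11.1 genome. The authors deposited FPKM values, which divide reads by the length of the gene and a library size that was not the plain count of reads. The formula is not given in the sources used here. Multiplied by length, 100% of the values came out as whole reads within 0.05 reads. The authors tested counts, and here limma 3.58.1 (R 4.3.3; lmFit, eBayes with a trend) was run on log2(FPKM + 0.5), with the 11 wounds, no covariate and the study's thresholds. The members, lists and naming rule were chosen with earlier results of these data known. Named were the 7 members, of each nerve list called genes and the 3 most abundant, of each marker list the most abundant, and the 3 genes most like SOX10, NGFR and S100B. The remaining genes named (NEFL, SCN7A, TYR, TYRP1, OCA2, CLCF1, GRIK2, RTN4R, ARTN, KRT15, ITGAM, CD14 and LEP) were picked from the lists after their values were seen, and some list genes are counted in the totals but not reported here one by one. Symbols turned into dates (26) were repaired from identifiers. GFRA2, LIFR, TUBB3, CALCA and CALCB were not assigned, having no single matching symbol. Alternatives changed the pseudocount, filter, scaling, spread estimate, weights, side letter and wounds, used voom on recovered reads or a replicate block, and 1 kind (wounds 1 to 4 of each group without the block) was added after seeing the data. The fit was tested on simulated data. The rest was done with SciPy 1.17.1, pandas 2.3.3 and numpy 2.4.6 in Python 3.11.15, and plots with matplotlib 3.10.9. The number of wounds limits the precision.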

Additional observations from a re-analysis of the deposited data

Results flagged for a closer look

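Wounds far from the others of their group were looked for in 60 groups of values (30 genes in both groups). The test was on the gap to the nearest wound, in FPKM without a log, and chance passes it in about 1 of 20 groups. It found 3, about as many as that rate gives over 60 groups. The 3 values are therefore given as a description and not as an excess over chance. CDH19 stood at 0.257 FPKM in diabetic wound 2, against 0.0113 to 0.104 FPKM in the other diabetic wounds. SCN7A stood at 0.335 FPKM in the same wound, against 0.0195 to 0.118 FPKM. SNAP25 stood at 12.7 FPKM in non-diabetic wound 4, against 1.99 to 3.43 FPKM in the other non-diabetic wounds.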

How the results depend on the processing

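The count of called genes, 419, was 822 with library weights, 187 without diabetic wound 4 and non-diabetic wound 1, and 181 to 483 with any single wound left out, of which 181, 248, 199 and 226 without non-diabetic wounds 1, 2, 3 and 4. The numbers in the labels did not pair the wounds: same-numbered wounds deviated together with r of -0.511 to 0.430, and 0 of 4 diabetic wounds correlated best with their own number. With the replicate block, over wounds 1 to 4 of each group, 16 genes were called, beside 123 in the same 8 wounds without it, a comparison added after seeing the data. Both of these fits gave MBP 0.20 and PMP22 -0.16, and neither called a member or a nerve list gene (0). Members called were 0 to 1 with a wound left out, and 1 (NGFR) with a pseudocount of 1 (log2 fold change 0.79), quantile normalization (0.93) or library weights (0.83). Nerve list genes called were 2 with quantile normalization, 3 with library weights, 0 without diabetic wound 4 and non-diabetic wound 1, and 0 to 2 with a wound left out. With the same total FPKM the S100B difference was 0.42, no longer past the exact test, and PMP22 was -0.052 in both tests. Quantile normalization gave PMP22 -0.043. With a wound left out, NGFR ran from 0.67 to 1.09, S100B from 0.33 to 0.62, MBP from -0.26 to 0.017 and PMP22 from -0.042 to 0.13. The correlation of SOX10 with PMP22 turned to -0.0181 with quantile normalization and -0.241 with the same total FPKM, and that with PRX to -0.183 without the 2 wounds farthest from the median. With a diabetic wound left out, correlations with SOX10 ran from -0.884 (without diabetic wound 1, adjusted exact permutation p = 0.025) to 0.378 (without diabetic wound 4) for S100B, -0.426 to 0.110 for MBP, -0.181 to 0.483 for PMP22 and -0.208 to 0.419 for PRX. In these alternatives SOX10, CDH19 and PRX kept their direction and stayed short of the threshold, except that SOX10 could not be fitted with the filter at 1 FPKM. Causes were not tested. Low read counts limit the values of CDH19, SOX10, MBP and the axon genes.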

Other observations

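Of the 97 measured nerve list genes, 4 had groups that did not overlap (4.12%), beside 4.20% of all genes with a read in any wound, and those named here were chosen after their values were seen. L1CAM and CLCF1, a cytokine of the ciliary neurotrophic factor family, were higher in diabetic wounds. CLCF1 had a mean of 2.03 ± 0.481 FPKM (SD, n = 7) against 1.29 ± 0.130 FPKM (SD, n = 4) and a log2 fold change of 0.48, with a limma adjusted p of 0.106. GRIK2, a kainate-type glutamate receptor subunit under the filter on low values, was lower, at 0.00519 to 0.0263 FPKM in diabetic wounds (2 to 10 reads) and at 0.128, 0.0907, 0.256 and 0.207 FPKM in non-diabetic wounds (34 to 105 reads). It gave an exact permutation p of 0.00303, unadjusted and the smallest that the 330 divisions allow, over 97 genes looked at.

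RTN4R, the Nogo receptor, which holds back axon growth, was at 1.70 ± 0.547 FPKM (SD, n = 7) in diabetic against 0.733 ± 0.251 FPKM (SD, n = 4) in non-diabetic wounds, with a log2 fold change of 0.82 and a limma adjusted p of 0.0547. It was called in 3 of 25 alternatives. ARTN, artemin, a growth factor for sensory neurons, was at 1.32 ± 0.377 FPKM (SD, n = 7) against 0.724 ± 0.191 FPKM (SD, n = 4), with a log2 fold change of 0.56 and a limma adjusted p of 0.129, and was called in 2 of 25 alternatives. The groups of both genes overlapped, and both were named because an alternative called them.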
